A study of Mus musculus with 8 samples.

Results

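The probes described here are those that the array names mouselincRNA or MM9LINCRNAEXON, which were placed on a mouse expression array to measure long intergenic noncoding RNAs (lincRNAs). A probe was included when its signal was well above background, by the flag of the scanner software, on at least 2 of the 8 arrays. Of 732 such probes on the array, 434 met this rule, 372 of them named mouselincRNA and 62 named MM9LINCRNAEXON. They were 434 of the 47175 probes tested among 60915. Each name ends in a number, a plus or minus sign and the suffix _P1. The sources used here do not say whether the sign gives the strand of the probe or of the transcript, and they pair no name with a gene, a genome position or a sequence, so each result below is a result for a probe.

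A lincRNA is transcribed from the genome between protein-coding genes and is not translated, although it is usually capped, spliced and polyadenylated like an mRNA. As a class, lincRNAs are known for lower abundance and for a narrower range of tissues than mRNAs, and the few that are well studied act in chromatin regulation, as scaffolds for protein complexes or as binding partners of other RNAs. The salivary gland consists of acini, which secrete the proteins and fluid of saliva, and of ducts that carry and modify it, and mucoepidermoid carcinoma (MEC) is a salivary tumor made of mucous, epidermoid and intermediate cells.

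RNA came from normal salivary glands of littermates without the fusion transgene (N1, N2), from glands next to a tumor (NAT1, NAT2) and from tumors (T1 to T4), 1 array per sample. The tumors arose in mice with a transgene for FLAG-tagged CRTC1-MAML2, the fusion oncogene of human MEC, placed behind a LoxP-flanked stop cassette and driven by the ubiquitous CAG promoter. Cre removes the cassette, and it came from a cross with homozygous MMTV-Cre mice, which express Cre in salivary ducts, so the N mice carried MMTV-Cre as well. N1 and N2 were littermates of the mice with T1 and T2, and by the titles NAT1 and NAT2 were the glands next to T1 and T2. Which transgenic line the arrayed samples came from and the age of these mice are not given in the sources used here. The source label of NAT2, however, places it next to tumor 1, and that of T2 names gland next to tumor 2. The titles were followed for the tissue, and whether NAT2 and T2 came from the same mouse is in doubt, as is every value that rests on pairing them. Because the probes could not be matched to genes, the tissues were not checked against their markers.

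Signals were analyzed as log2 intensity minus the 75th percentile of the array, so a value of 0 is the level of that percentile and all changes are relative to it. This percentile itself was brighter in the tumors (7.73 to 8.42) than in NAT (7.48, 7.56) and N (7.13, 6.68). A probe was called when limma gave a change of at least 2-fold and an FDR of at most 0.05 (Benjamini-Hochberg over all 47175 probes). The array's own control probes for the ends of the Gapdh and Pgk1 transcripts, a sign of RNA quality or labeling, moved with the groups: the 5′ minus 3′ log2 signal of Mouse-GAPDH was -3.07 and -3.58 in N, -2.38 and -2.89 in NAT and -0.80 to -0.34 in T. For Mouse-PGK1 the ranges were -8.48 to -7.70 in N, -7.56 to -7.13 in NAT and -5.78 to -4.46 in T. The part of this difference in the results below was not tested.

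Detection of the mouse lincRNA probes varied widely. Of the 732 probes on the array, 251 were well above background on all 8 arrays, 241 on none and 57 on 1. The other 183 were above background on between 2 and 7 arrays. Among the 434 tested probes, 339 and 308 were above background in N1 and N2, 337 and 367 in NAT1 and NAT2, and 361, 391, 360 and 360 in T1 to T4. Their median scaled log2 signal was -2.07 and -2.04 in N, -2.45 and -2.14 in NAT and -2.90, -3.08, -2.82 and -2.60 in T1 to T4. The 4 tumors thus had the lowest medians, below both NAT arrays and both N arrays. Before scaling the order was different, with medians of 5.06 and 4.64 in N, 5.03 and 5.43 in NAT and 5.04 to 5.34 in T, and the groups overlapped.

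In T versus N, the lincRNA probes that passed the cutoff were mostly lower in the tumors. Of the 434 probes, 178 were called, 26 higher and 152 lower. Over all tested probes 48.6% were called, 27.5% higher and 21% lower, so the lincRNA probes had a smaller share higher, 5.99%, and a larger share lower, 35.0%. Their median log2 fold change was -0.70, against 0.29 over all tested probes. These samples are bulk tissue, in which fewer cells of a type and less RNA per cell cannot be told apart. The split moved with the scaling: without any scaling 128 were called higher and 67 lower, with normexp background correction 1 and 121, and with the mean of the 15 probes named by a RefSeq accession subtracted 2 and 341. Over all tested probes these settings called 54.0% higher and 8.63% lower, 15.1% and 16.1%, and 7.81% and 50.3%. They moved the median of all tested probes to 1.42, -0.39 and -1.23. The median of the lincRNA probes was 0.43, -0.71 and -2.23 in the same order, so without scaling it lay above 0.

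The array also carries 15 probes with the name MM9NEGATIVE, and these moved down with the scaling as well. Their median log2 difference between T and N was -0.93 after scaling and 0.21 before it, and their part in the lower calls was not tested. Before scaling, all 4 T arrays lay below both N arrays at 97 of the 434 probes, or 22.4%, against 12.1% of all tested probes, and above them at 178, or 41.0%, against 62.6%. Of the 152 called lower, 96, or 63.2%, were among the 97, against 57.2% of all probes called lower. The call held for 67 of the 152, or 44.1%, and for 40.8% of all probes called lower, under all 7 scaling and background settings run on the scanner signals, the unscaled one included.

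**Figure D1:**
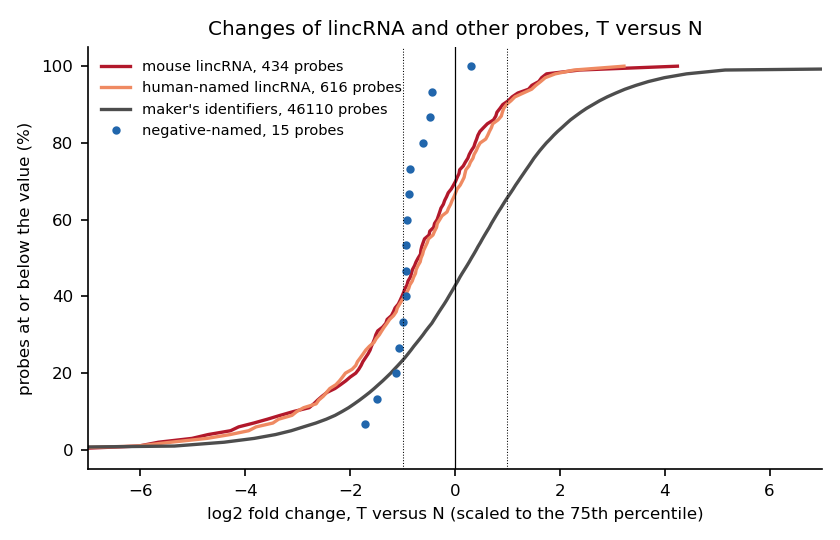
Cumulative share of probes (y axis, percent) at or below each log2 fold change, T versus N (x axis, scaled to the 75th percentile of the array), for 434 mouse lincRNA probes, 616 human-named lincRNA probes and 46110 probes with the maker's identifiers; points are the 15 negative-named probes and dotted lines mark 2-fold changes. The mouse lincRNA curve, with its median at -0.70, lies left of the curve of the maker's identifiers, with its median at 0.31, and close to the human-named curve, with its median at -0.65.

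The array also carries lincRNA probes with human names. Whether these match mouse RNA is not given in the sources used here, so what their signal measures is not known. Of 616 human-named probes tested, 263 were called in T versus N, 42 higher and 221 lower, and their median log2 fold change was -0.65. Both mouse name families shared the direction, with 18 of 372 mouselincRNA probes higher and 131 lower, and 8 of 62 MM9LINCRNAEXON probes higher and 21 lower. By sign, 20 of 222 plus probes were called higher and 73 lower, against 6 and 79 of 212 minus probes. No test was made between these families or signs, since probes that share a transcript are not independent.

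The excess of lower calls was present among the well-detected probes. Of the 251 lincRNA probes above background on all 8 arrays, 102 were called lower and 1 higher, with a median log2 fold change of -0.92. Over all probes detected this way, 24.9% were called lower and 23.4% higher, with a median of -0.04. Among the other 183 lincRNA probes, 50, or 27.3%, were called lower and 25, or 13.7%, higher, against 13.5% and 35.7% of all tested probes outside that group.

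Without regard to the test, all 4 T arrays lay below both N arrays at 215 of the 434 probes, or 49.5%, against 28.9% of all tested probes. They lay above both N arrays at 54, or 12.4%, against 36.9%. When the NAT arrays were included, T lay below all 4 gland arrays at 165 probes (38.0%, against 22.4%) and above them at 32 (7.37%, against 28.2%).

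**Figure D2:**
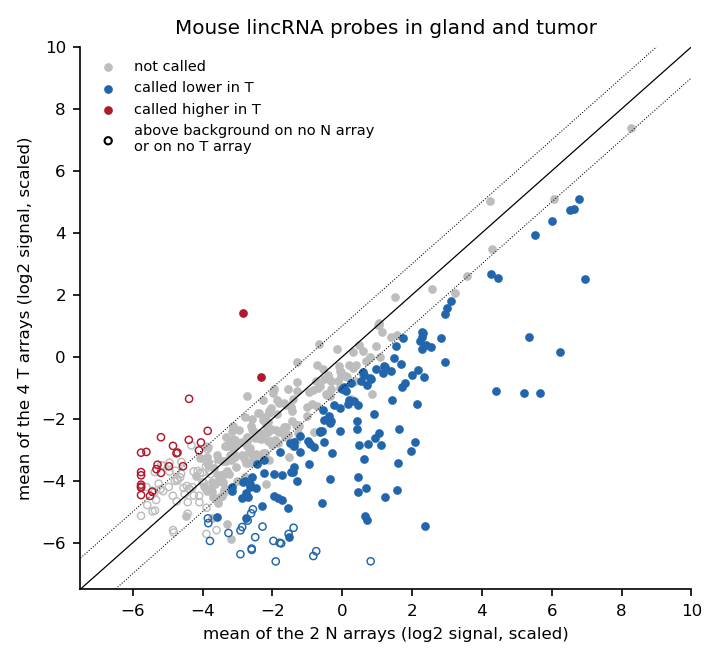
Mean scaled log2 signal on the 4 T arrays (y axis) against the mean on the 2 N arrays (x axis) for the 434 mouse lincRNA probes, with 2-fold changes as dotted lines; blue and red points are the 152 probes called lower and the 26 called higher, and open points were above background on no N array or on no T array. Blue points extend far below the diagonal, and nearly all red points are open, since 24 of the 26 were below background on both N arrays.

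The strongest falls left a signal that was still detected in every tumor at 6 of the named probes. Among probes above background on all 8 arrays, mouselincRNA0065+_P1 had scaled log2 signals of 5.95 and 5.37 in N, 4.89 and 5.43 in NAT and -2.10, -1.24, 0.01 and -1.29 in T1 to T4. All gland arrays lay above all tumors, and the log2 fold change in T versus N was -6.82 (SE 0.54, limma FDR 9.34e-05), which is 113-fold lower in T. The fall of mouselincRNA0543+_P1 was of similar size, from 5.40 and 4.99 in N and 5.38 and 5.50 in NAT to -1.75, -1.08, -0.69 and -1.14 in T, a change of -6.36 (SE 0.34, limma FDR 5.01e-05). For this probe the adjacent glands were as bright as the normal glands, and the 4 tumors lay within little more than 1 log2 unit of one another.

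MM9LINCRNAEXON11298-_P1 was well detected in the gland, at 5.99 and 6.46 in N and 5.20 and 5.79 in NAT. In the tumors it read -0.21, -0.19, 0.95 and 0.10, and the change from N was -6.06 (SE 0.41, limma FDR 5.71e-05). The fourth by size, mouselincRNA0959+_P1, was at 4.47 and 4.36 in N, at 3.01 and 4.58 in NAT and at -1.02, -1.55, -0.81 and -0.999 in T, a change of -5.51 (SE 0.45, limma FDR 9.78e-05). NAT1 was the lowest of the 4 gland arrays for both probes, and still far above every tumor.

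The other probes named by the same rule fell by about 5 on the log2 scale. In mouselincRNA1052+_P1 the signals were 1.83 and 1.38 in N, 1.12 and 1.67 in NAT and -3.14, -3.63, -3.33 and -3.58 in T, with a change of -5.03 (SE 0.31, limma FDR 5.01e-05). In mouselincRNA1035-_P1 they were 2.16 and 1.79 in N, 1.23 and 2.02 in NAT and -3.48, -3.37, -2.44 and -2.88 in T, with a change of -5.02 (SE 0.39, limma FDR 8.79e-05). Neither overlapped between gland and tumor. All 6 of these probes were called lower in T versus NAT as well, with log2 fold changes between -6.61 and -4.67, and all 6 were called lower under each of the 7 scaling and background settings in both comparisons.

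Some lincRNA probes were detected in the normal gland and in no tumor. At 18 of the 434 probes, or 4.15%, both N arrays and no T array were above background, against 1.23% of all tested probes. Both NAT arrays detected 15 of these 18, and NAT2 alone detected the other 3. For such probes only a bound on the fold of the scaled signals can be given. It is set by the dimmest signal still well above background on each T array.

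The bound was largest for mouselincRNA1249-_P1. Its scaled log2 signal was 0.83 and 0.80 in N and -0.35 and 0.41 in NAT, and on the T arrays, at -6.82, -7.14, -6.06 and -6.40, it was not well above background. On the scaled signals it was at least 38.2-fold lower in T than in N (limma FDR 5.01e-05), or 5.26 on the log2 scale. With normexp the fitted change was -3.06, short of that bound, and the probe was still called lower. Both adjacent glands lay below both normal glands, NAT1 more so than NAT2, and far above the tumors.

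For mouselincRNA1250+_P1 the N arrays were at -0.92 and -0.57, the NAT arrays at -2.01 and -1.34 and the T arrays at -6.24, -6.52, -5.92 and -6.42, at least 12.96-fold lower in T (limma FDR 5.01e-05). For mouselincRNA0813-_P1 they were at -0.97 and -0.69, at -2.46 and -0.78 and at -6.82, -7.14, -6.12 and -5.66, at least 12.2-fold lower (limma FDR 0.000201). In both, NAT1 was the dimmest of the gland arrays. With normexp the fitted log2 changes were -1.86 and -1.89, short of the log2 bounds of 3.70 and 3.61, and both probes were still called lower.

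Fewer lincRNA probes were higher in the tumors, and nearly all of them were undetected in the normal gland. Of the 26 called higher, 24, or 92.3%, were above background on neither N array, against 34.1% of all probes called higher, and 19 of the 24 were above background on all 4 T arrays. Values fitted against a group below background depend on its dimmest signals and are not bounds, so sizes are summarized only for the 102 probes called lower that were detected on all 8 arrays, whose log2 fold changes ranged from -6.82 to -1.02 with a median of -1.79.

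The single probe called higher among those above background on all 8 arrays was mouselincRNA1422+_P1. It read -2.08 and -2.57 in N, -2.65 and -2.32 in NAT and -0.08, -1.49, -1.04 and -0.06 in T, with a log2 fold change of 1.66 against N (SE 0.46, limma FDR 0.0179) and of 1.82 against NAT (SE 0.46, limma FDR 0.0168). Every tumor lay above every gland array, and T2 was nearest to them. The call against N was lost with normexp, where the change was 0.66, with the RefSeq-named mean subtracted, at 0.13, with the replicate block that ties N1, NAT1 and T1 and likewise N2, NAT2 and T2 (1.54, limma FDR 0.0681), without N1 (1.90, limma FDR 0.0504) and without N2 (1.41, limma FDR 0.119).

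In all, 38 probes, or 8.76%, were above background on all 4 T arrays and on neither N array, against 11.01% of all tested probes. Neither NAT array detected 22 of the 38, both detected 6, NAT1 alone detected 6 and NAT2 alone 4. By the bound, mouselincRNA0480+_P1 led those that were called, at -3.75 and -5.02 in N, -3.91 and -3.31 in NAT and -0.52, -2.95, -0.72 and -1.24 in T. It was at least 4.23-fold higher in T (limma FDR 0.00757), with T2 close to NAT2 and the other tumors well above it. It was no longer called without N2 (limma FDR 0.0732), with normexp (a change of 0.56, limma FDR 0.247), with the RefSeq-named mean subtracted (1.51, limma FDR 0.0763) or by the methods' t-test once adjusted over all tested probes (FDR 0.0636).

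The next by the bound was mouselincRNA0441+_P1, with -3.71 and -4.005 in N, -3.19 and -3.23 in NAT and -1.99, -2.84, -2.20 and -2.54 in T, at least 2.07-fold higher than N (limma FDR 0.00581). This probe was above background on both NAT arrays and was not called in T versus NAT (0.82, limma FDR 0.0725). MM9LINCRNAEXON11382+_P1 followed with -4.76 and -5.62 in N, -3.83 and -6.40 in NAT and -2.86, -2.95, -2.48 and -2.10 in T, at least 1.79-fold higher (limma FDR 0.0120). In both probes every tumor lay above every gland array. The call of MM9LINCRNAEXON11382+_P1 was lost without N2 (limma FDR 0.0947), with the RefSeq-named mean subtracted (1.07, limma FDR 0.115) and with NAT1 and NAT2 crossed in the replicate block (2.29, limma FDR 0.0934), a setting chosen after seeing the data. The RefSeq-named mean took the call of mouselincRNA0441+_P1 as well (-0.060, limma FDR 0.894). With normexp neither was called and the change of both was below 0, at -0.20 and -0.19.

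A further probe, MM9LINCRNAEXON11569-_P1, falls outside the rule for named probes and was singled out after its values were seen. It was called higher in T versus N (limma FDR 0.0106) and was the single one of the 26 lincRNA probes called higher that was so under all 7 scaling and background settings, or 3.85%, against 21.1% of all probes called higher. Its signals were -1.74 and -3.92 in N, 0.98 and -2.98 in NAT and 0.73, 1.88, 2.00 and 1.04 in T, and 1 of the 2 N arrays was above background. NAT1 lay among the tumors and NAT2 among the normal glands, so the NAT and T arrays overlapped.

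**Figure D3:**
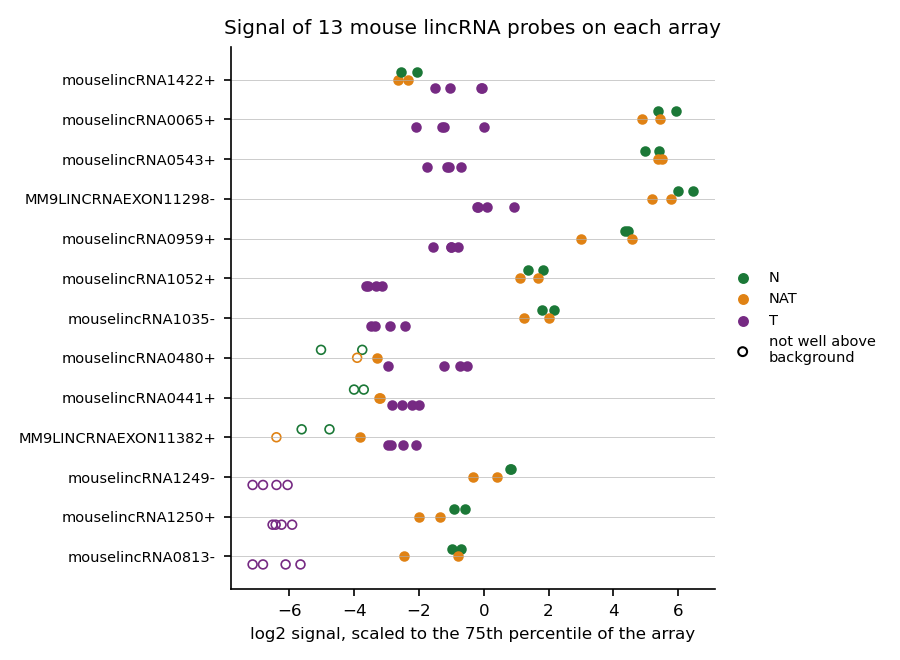
Scaled log2 signal (x axis) on each of the 8 arrays for 13 mouse lincRNA probes (y axis): the probe called higher and the 6 lowest among those above background on all 8 arrays, then 3 detected in all tumors and no normal gland, and 3 detected in both normal glands and no tumor. Open circles are arrays on which the probe was not well above background; the N and NAT arrays lie together and apart from the 4 T arrays in the probes that fell.

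Against the adjacent glands, the tumors again had more lincRNA probes lower than higher. In T versus NAT, 138 of the 434 probes were called, 19 higher and 119 lower, against 36.5% of all tested probes in either direction, 20.6% higher and 15.9% lower. The median log2 fold change was -0.47, against 0.24 over all tested probes. Without scaling 52 were called higher and 69 lower, with normexp 0 and 64, and with the RefSeq-named mean subtracted 0 and 274. Over all tested probes these settings called 33.0% higher and 9.38% lower, 12.2% and 10.6%, and 6.37% and 39.1%. The median of the lincRNA probes under them was 0.05, -0.40 and -1.60, against 0.75, -0.13 and -0.90 over all tested probes. The count was 61, 7 of them higher and 54 lower, when NAT2 was left out, or 14.1% against 16.6% of all tested probes, and 85 with the replicate block. The replicate block called 19.6% of the lincRNA probes, against 24.4% of all tested probes. T versus N and T versus NAT share the T arrays.

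Some probes were called against NAT and not against N. Of these, MM9LINCRNAEXON10227+_P1 had the lowest FDR, at -4.49 and -4.74 in N, -6.06 and -5.31 in NAT and -3.77, -3.98, -3.89 and -3.45 in T. It was at least 1.68-fold higher in T than in NAT (limma FDR 0.00288), and against N (limma FDR 0.0539) no fold can be bounded. The second, mouselincRNA0307+_P1, had -4.91 and -4.54 in N, -5.09 and -5.75 in NAT and -3.71, -4.22, -3.91 and -3.93 in T, at least 1.49-fold higher than NAT (limma FDR 0.00772), with no bound against N (limma FDR 0.0646). Both were above background on all 4 T arrays and on no gland array, so the differences between N and NAT lie below background. Both thus met the detection rule through the T arrays alone, and their FDRs rest on gland signals below background. Neither bound reaches the 2-fold cutoff. Against N both were called higher without scaling, with fitted changes of 1.97 (limma FDR 0.00179) and 1.91 (limma FDR 0.00107). For mouselincRNA0307+_P1 this also held with the deposited table (1.02, limma FDR 0.0137) and with the slide row as a block (1.12, limma FDR 0.0403). All of these fitted changes rest on N signals below background and bound no fold. Against NAT neither was called higher with normexp or with the RefSeq-named mean subtracted, where no lincRNA probe was.

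Between the adjacent and the normal glands, limma called 0 of the 434 lincRNA probes and 0 of all tested probes. An unadjusted limma p under 0.05 was reached by 18 of the 434, or 4.15%, against 4.23% of all tested probes, and the methods' t-test at its unadjusted threshold gave 5, or 1.15%, against 0.661%. That t-test is named in the paper's general statistics, while its cutoff for the arrays was a fold change with an FDR. At that cutoff the paper reported no genes significantly altered between NAT and N. Without NAT2, limma called 4, or 0.922%, all higher in NAT1, against 0.341% of all tested probes. The lowest FDR in this comparison was 0.878, and the median log2 fold change of the lincRNA probes was -0.28, against -0.02 over all tested probes. Without scaling this median was 0.33, against 0.59 over all tested probes, and with the RefSeq-named mean subtracted -0.67, against -0.41. The lincRNA median was -0.06 without NAT1 and -0.47 without NAT2.

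Of the probes with an unadjusted p under 0.05, the largest difference was that of mouselincRNA0362+_P1, which was above background on every array. Its signals were -0.87 and -0.88 in NAT, against -2.90 and -2.20 in N and -2.84, -2.58, -2.20 and -1.94 in T. The adjacent glands lay above all other arrays, at 1.68 above N on the log2 scale (SE 0.41, limma FDR 0.878), which did not pass the cutoff. In T versus NAT the probe was called lower (-1.52, SE 0.35, limma FDR 0.0116). That comparison shares the NAT arrays by which the probe was picked.

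The next by fitted difference, mouselincRNA0188-_P1 and mouselincRNA0909-_P1, had the same limma FDR of 0.878. mouselincRNA0188-_P1 was at -5.91 and -5.62 in N and -3.86 and -4.59 in NAT, with no N or NAT array above background. mouselincRNA0909-_P1 was at -5.55 and -5.62 in N and -3.70 and -4.47 in NAT, with NAT1 alone above background. No fold is given for either, since N and most of NAT lay below background.

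At the lincRNA probes that changed in the tumors, NAT1 lay farther toward T than NAT2. Over the 186 probes called when only the N and T arrays entered the fit, NAT1 had covered on average 0.375 of the log2 distance between N and T, and NAT2 0.0996. Over the 157 of these that were lower the shares were 0.367 and 0.0681, and over the 29 that were higher 0.421 and 0.270. In the full fit, 24 of the 26 probes called higher were above background on neither N array. The start of the distance is thus poorly measured for higher probes. For comparison, N2 measured from N1 had a share of -0.299 over the higher probes, and N1 from N2 -0.0152. Over the lower probes these were -0.00218 and -0.0983. NAT1 was nearer to T than NAT2 at 167 of the 186, against 18912 of the 22996 probes called this way over the whole array, whose average shares were 0.359 and 0.0833. Each share rests on 1 array, so none was tested. The adjacent glands differed from each other by 2-fold or more at 97 of the 434 probes, or 22.4%, and the normal glands at 65, or 15.0%, against 24.5% and 17.6% of all tested probes.

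**Figure D4:**
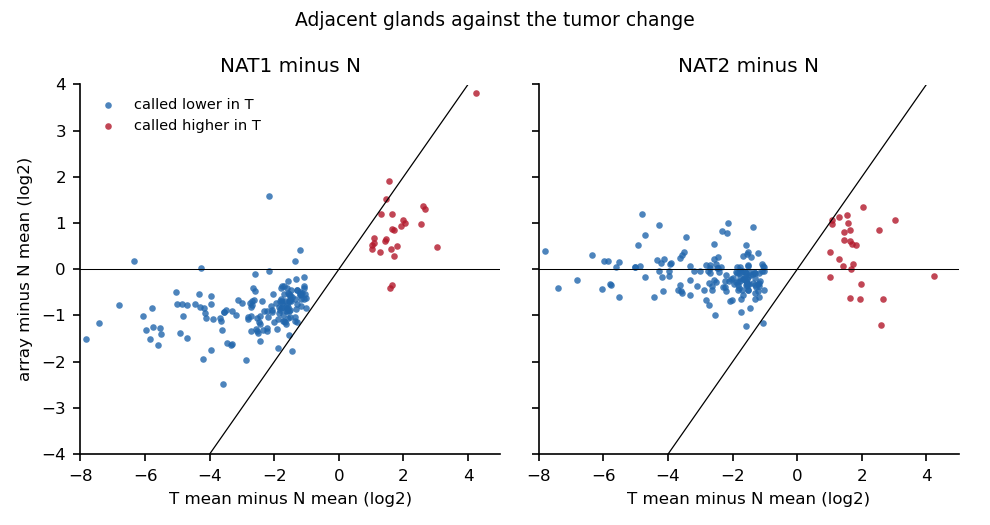
Scaled log2 signal of NAT1 (left) and NAT2 (right) minus the mean of the N arrays (y axis) against the T mean minus the N mean (x axis) for the 178 lincRNA probes called in T versus N, blue lower and red higher; the diagonal marks the change of the tumors and the horizontal line no difference from N. Most blue points of NAT1 lie below the horizontal line and those of NAT2 lie around it, and the red point farthest to the right is MM9LINCRNAEXON11569-_P1.

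The tumors differed little among themselves at most lincRNA probes. The SD over the 4 T arrays had a median of 0.35 log2 units at the 251 probes above background on all 8 arrays, against 0.36 over all probes detected this way, and exceeded 1 at 5 of the 251, or 1.99%, against 6.88%. The widest spread was that of mouselincRNA1616+_P1, chosen after its values were seen, at -3.89, -3.29, -3.47 and -0.27 in T1 to T4 and -1.33 and -1.33 in N. There T4 lay above the normal glands and the other tumors lay below them. At mouselincRNA0009-_P1, chosen in the same way, T2 was at -0.72 and the other tumors between -4.32 and -2.57, with N at -0.91 and -1.94. Neither of these probes was called.

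Many lincRNA numbers are carried by both a plus and a minus probe, and the members of such a pair often changed differently. On the array, 329 numbers had both signs. Both probes were tested for 104 of them, only the plus probe for 86, only the minus probe for 87 and neither for 52. Among the 104 pairs in T versus N, both probes were called lower in 13 and both higher in 0, 1 was lower and the other not called in 42, 1 was higher and the other not called in 8, and neither was called in 37. In the other 4 pairs, mouselincRNA0188, mouselincRNA0567, mouselincRNA0770 and mouselincRNA1294, 1 probe was called higher and the other lower. The probe called higher was above background on 2, 6, 4 and 4 of the 8 arrays, in that order. In none of these pairs was it above background on an N array, and each of these higher calls was lost with normexp.

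The changes of the 2 members differed by a median of 1.49 on the log2 scale, by more than 2 in 38 pairs and by more than 4 in 10. Across the 104 pairs, Pearson's r between the changes was 0.07 and Spearman's rho 0.07. This is a description across pairs on the same 8 arrays, not a test over independent samples. These fitted changes include arrays below background. Among the 38 pairs with both members above background on all 8 arrays, the median difference was 1.31, it exceeded 2 in 12 pairs and 4 in 3, and r was -0.11 and rho -0.11.

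The 3 pairs with the largest fitted differences, which rest in part on tumors below background, were mouselincRNA0424, mouselincRNA1222 and mouselincRNA1250. In the first, both probes were called lower. The plus probe, mouselincRNA0424+_P1, was at 2.52 and 2.21 in N, 0.86 and 2.75 in NAT and -6.82, -4.62, -3.94 and -6.42 in T, above background on T2 and T3 only among the tumors. The minus probe, mouselincRNA0424-_P1, was at 2.40 and 2.20 in N, 1.42 and 2.08 in NAT and 0.43, -0.23, 0.47 and 0.30 in T. The fitted changes were -7.82 (SE 0.87, limma FDR 0.000309) and -2.06 (SE 0.33, limma FDR 0.00152), and with normexp they were -4.15 and -1.64. Without scaling the minus probe changed by -0.92 and lost its call.

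In mouselincRNA1222 the minus probe fell and the plus probe was not called. mouselincRNA1222-_P1 was at 1.92 and 0.53 in N, -0.02 and 0.88 in NAT and -4.75, -4.55, -4.18 and -4.66 in T, with T2 and T3 above background, and a fitted change of -5.76 (SE 0.45, limma FDR 8.43e-05). mouselincRNA1222+_P1 was at -0.82 and -0.66 in N, -1.30 and -0.82 in NAT and -0.69, -1.44, -0.60 and -0.35 in T, where the groups overlapped and the change was -0.03 (SE 0.36, limma FDR 0.954). With normexp the changes were -3.15 and -0.15. The plus probe was called higher without scaling (1.103, limma FDR 0.0158) and lower with the RefSeq-named mean subtracted (-1.55, limma FDR 0.00992).

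In mouselincRNA1250 the signs were the other way round. mouselincRNA1250+_P1, described above, was detected in no tumor, while mouselincRNA1250-_P1 was at -0.17 and 0.01 in N, -0.76 and -0.34 in NAT and -0.29, -0.91, -0.20 and 0.19 in T. The groups overlapped at the minus probe, and its change was -0.22 (SE 0.35, limma FDR 0.621), while the plus probe has only the bound of at least 12.96-fold lower. With the RefSeq-named mean subtracted the minus probe was called lower (-1.74, limma FDR 0.00518).

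The opposite-sign partners of the strongest probes followed no single pattern. mouselincRNA0543-_P1 was called lower with its partner but fell less, from 3.00 and 3.00 in N to 1.61, 1.16, 1.63 and 1.87 in T, a change of -1.43 (SE 0.34, limma FDR 0.00883) and a difference within the pair of -4.92 (SE 0.47). Its call was lost without scaling (-0.30, limma FDR 0.469), and without N1 or without N2, with limma FDRs of 0.0503 and 0.0509. mouselincRNA1052-_P1 was not called, with a change of -0.19 (SE 0.28, limma FDR 0.594) and a difference of -4.84 (SE 0.46). mouselincRNA1422-_P1, the partner of the probe that rose, was not called either, at -0.65 (SE 0.33, limma FDR 0.129), with a difference of 2.31 (SE 0.54). Both were called lower with the RefSeq-named mean subtracted, at -1.72 (limma FDR 0.00457) and -2.17 (limma FDR 0.00265), and mouselincRNA1422-_P1 also with the slide row as a block (-1.08, limma FDR 0.0415).

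**Figure D5:**
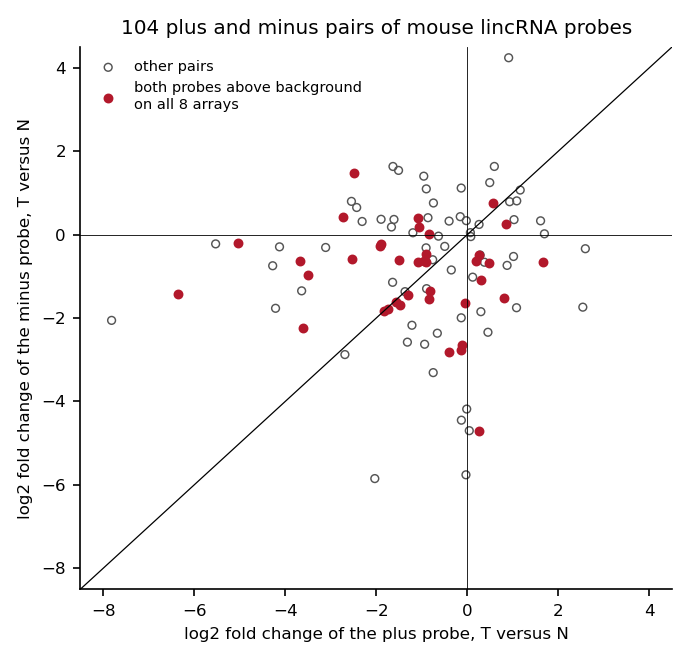
Log2 fold change in T versus N of the minus probe (y axis) against that of the plus probe with the same number (x axis) for the 104 pairs in which both were tested; the diagonal marks equal changes, and filled points are the 38 pairs with both probes above background on all 8 arrays. The points spread along both axes rather than along the diagonal, with a Pearson's r of 0.07 over all pairs and of -0.11 over the filled points.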

How the data were processed

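RNA from 8 mouse tissue samples was measured on 1-color Agilent lncRNA/mRNA arrays, 1 array per sample, all from 1 slide and 1 scan. The authors labeled RNA depleted of ribosomal RNA by random priming along whole transcripts, and Agilent Feature Extraction 11.0.1.1, named in the submitters' processing notes, read the arrays. The deposited scanner files hold spot intensity on a linear scale after background correction. Besides these, the authors deposited log2 values for part of the probes, normalized to a common distribution by a method not given in the sources used here, which holds 382 of the 434 tested lincRNA probes and was used as an alternative.

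Control spots and spots flagged as outliers were dropped (2 lincRNA probes each lost 1 array, neither of them called), no spot was saturated, spots of a probe were averaged, and the array's 75th percentile was subtracted from log2 intensity. The 15 negative-named probes entered neither the percentile nor the tests. Probes had to be well above background on 2 or more arrays, and the resulting 47175 were fitted with limma 3.58.1 (lmFit, eBayes) in R 4.3.3 on the 3 groups N, NAT and T together, with Benjamini-Hochberg adjustment over all of them, and the fit was tested on simulated data. A bound on a fold sets the mean of the brighter group against the mean, over the arrays of the dim group, of the higher of the lowest signal well above background and the probe's own. Python 3.11.15 made the tables and figures. Precision is limited by how few arrays each group has.

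The lincRNA probes, lists and tests were chosen with earlier results of these data known. Named were the 6 highest (only 1 existed) and 6 lowest called probes above background on all arrays, the 3 largest bounds in each direction among probes switched between N and T, the 3 largest NAT differences, the 2 lowest FDRs called against NAT alone, the opposite-sign partners and the 3 most different pairs. Cell type markers and known lncRNA genes were listed but could not be matched to probes and were not analysed here. Alternatives were normexp (offset 50), quantile, median, RefSeq-named, detected-probe and no scaling, the deposited table, other filters, only the arrays compared, the replicate or slide row as a block, the replicate block with NAT1 and NAT2 crossed (added after seeing the data), an intensity trend, the methods' t-test, dropping each array in turn and an FDR of 0.01.

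The titles number N1, NAT1 and T1 alike and likewise N2, NAT2 and T2, and the N source labels name the littermate by tumor number, but the source label of NAT2 places it next to tumor 1, so that the pairing of NAT2 is in doubt. Across probes, deviations from the group mean had correlations of 0.149 (N1 with NAT1), 0.0206 (N1 with T1), -0.0949 (NAT1 with T1), 0.149 (N2 with NAT2), 0.0785 (N2 with T2) and -0.248 (NAT2 with T2). N and NAT hold 2 arrays each, so the deviations of N2 and NAT2 mirror those of N1 and NAT1. The values of 0.149 for N1 with NAT1 and for N2 with NAT2 are therefore the same result, not separate ones.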

Additional observations from a re-analysis of the deposited data

Results flagged for a closer look

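The number of tested lincRNA probes above background on T2 was 391, against 360, 361 and 360 on the other tumors, a gap of 0.968 of the range of the 4 T arrays, which is above the 95% limit of Dixon's test for 4 samples. It was the only such value among 28 tested, and chance gives about 1 in 20. Over all probes on the array T2 was also the highest tumor, with 76.3% above background against 70.0% to 72.3%. It had the highest 75th percentile before scaling, 8.42.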

How the results depend on the processing

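The count of lincRNA probes called in T versus N was 178, and it was 343 (2 higher, 341 lower) with the RefSeq-named mean subtracted and 106 (3 higher, 103 lower) among probes above background on all 8 arrays, which leaves fewer probes to test. It stayed within 1.5 times in the other 16 of 18 alternatives, at 122 with normexp and 195 without scaling. With each array left out, the median log2 fold change of the lincRNA probes in T versus N lay between -0.80 (without T4) and -0.65 (without T2). More probes were lower than higher in 17 of the 18, all but no scaling. In T versus NAT the count was 138, against 64 with normexp, 274 with the RefSeq-named mean, 85 with the filter on all 8 arrays, 74 with the methods' t-test once adjusted by Benjamini-Hochberg and 66 at an FDR of 0.01. With each array left out it was 61 (without NAT2) to 134. In NAT versus N it was 0, against 5 with the methods' t-test unadjusted and 0 to 4 with each array left out (4 without NAT2, all higher). With 1 array left in a group, that array was assumed to vary like the other groups. Slide row (N1, NAT1, T1 and N2 were in row 1) fitted as a block gave 178 in T versus N, and within row 1 the median difference of T1 from the N mean over the 434 probes was -0.79. The causes were not tested.

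With the replicate block the counts were 148 (13 higher, 135 lower) in T versus N, 85 (3 higher, 82 lower) in T versus NAT and 0 in NAT versus N. Over all tested probes it called 21.2% higher and 17.3% lower in T versus N, and 13.6% and 10.8% in T versus NAT. The T versus N call of mouselincRNA1422+_P1 was lost (1.54, limma FDR 0.0681). The block turned the log2 fold change of mouselincRNA0362+_P1, which was not called, from 0.16 to -0.16. With NAT1 and NAT2 crossed in the block, an alternative chosen after seeing the data, the counts were 139, 79 and 0. In T versus N this was 32.0% of the lincRNA probes, against 36.2% of all tested probes, and in T versus NAT 18.2%, against 21.3%.

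For the 26 named probes, 552 of 610 combinations of probe and alternative kept the direction and the side of the threshold in T versus N, and 25 turned direction. In either direction, 26 lost and 13 gained a call. None of the 11 probes with a fitted fall of over 5 on the log2 scale turned direction. With normexp, mouselincRNA0441+_P1 was at -0.20, MM9LINCRNAEXON11382+_P1 at -0.19, mouselincRNA0362+_P1 at -0.39, mouselincRNA0188-_P1 at -0.54, mouselincRNA0909-_P1 at -0.68, MM9LINCRNAEXON10227+_P1 at -0.54 and mouselincRNA0307+_P1 at -0.56. With the RefSeq-named mean, mouselincRNA0441+_P1 was at -0.060, mouselincRNA0362+_P1 at -1.36, mouselincRNA0909-_P1 at -0.72, MM9LINCRNAEXON10227+_P1 at -0.68 and mouselincRNA0307+_P1 at -0.74. Without scaling, mouselincRNA1422-_P1 was at 0.48, mouselincRNA1052-_P1 at 0.94, mouselincRNA1222+_P1 at 1.103 and mouselincRNA1250-_P1 at 0.91. mouselincRNA0362+_P1 was at -0.027 with quantile normalization and with the deposited table, and at -0.10 with the slide row as a block. With each array left out, the change lay between -0.19 (without N1) and 0.51 for mouselincRNA0362+_P1, between -0.42 and 0.036 (without N2) for mouselincRNA1052-_P1, and between -0.17 and 0.19 (without T2) for mouselincRNA1222+_P1, none of which was called in T versus N. Signal over background limits the 24 higher probes detected on neither N array and the 23 lower probes detected on no T array in T versus N, whose folds are bounds only.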
